A study of Mus musculus with 4 samples.

Results

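Pigmentation and melanosome genes are the 40 genes, of 24421 gene symbols in the count matrix, whose products make melanin or build and move the melanosome, and they were chosen by symbol from knowledge of the pathway. They fall into 18 genes of the pigment program (lineage transcription factors, receptors, enzymes, structural proteins and transporters), 19 of melanosome biogenesis (sorting complexes, Rab GTPases and fusion factors) and 3 of melanosome transport. Their transcripts were counted in B16F10 cells, a mouse melanoma line derived from the C57BL/6 strain, grown in DMEM with 10% fetal bovine serum. All cells had been transduced with lentivirus and selected with puromycin at 2.5 µg/ml. Cells of 2 libraries (shControl) carried a control vector that the study lists as empty pLKO, and cells of 2 libraries (shLmna) carried a short hairpin RNA designed against exon 8 of Lmna, which encodes the A-type lamins of the nuclear envelope. As the control lacked a hairpin, hairpin expression in itself was not controlled for. No other hairpin against Lmna was used in these libraries, so effects of its sequence on other genes were not tested. The selected cells were expanded as pools whose separate origin is not stated, so p-values measure only the spread between these libraries.

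RNA was profiled by bulk MARS-seq, which counts molecules at the 3′ end of polyadenylated transcripts. The shControl libraries totalled 3262632 and 3808843 counts and the shLmna libraries 2494880 and 3657167. Lmna, the targeted gene, was counted 2826 and 2684 times in shControl and 331 and 480 times in shLmna. On the log2 scale this was a change of -2.61 (SE 0.142) with an edgeR adjusted p of 7.93e-06. Levels are given as CPM, the count relative to library size, scaled by the trimmed mean of M values, and a bulk level cannot tell fewer cells of a kind from less RNA per cell. A gene passed the test when its p from the quasi-likelihood F test of edgeR, adjusted over 9150 tested genes, was under 0.05.

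Melanin is made inside melanosomes, organelles related to lysosomes that mature from an endosome in which the amyloid protein Pmel forms fibrils. Tyrosinase and its relatives Tyrp1 and Dct reach this organelle through the sorting complexes BLOC-1, BLOC-2, BLOC-3 and AP-3 together with Rab32 and Rab38, and ion transporters and a copper pump set the conditions in which tyrosinase works. Transcription of many of these genes is driven by Mitf, which acts downstream of Sox10 and binds a form of the E-box known as the M-box in their promoters, and Rab27a, Mlph and Myo5a carry the finished melanosome along actin.

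To show where such elements lie, RefSeq promoter windows from 250 bases before to 50 bases after each start site (GRCm38.p6) were searched on both strands for CATGTG, for the longer M-box core TCATGTG, which contains it, and for TCACGTG, the related E-box whose CACGTG centre reads the same on both strands. Windows were found for 32 of the 40 members. TCATGTG was present in a window of 8 of these 32 members (25%) and of 4.31% of 27025 genes, and CATGTG in 10 of 32 members (31.2%) and 15.9% of genes. TCACGTG was likewise found in 8 of 32 members and 4.29% of genes. Upstream stretches are printed for the enzymes Tyr and Dct, and for the 3 members with a match that passed the test below, Slc7a11 with a reservation. Matches to the searched letters are in capitals, and positions are counted from the start site to the first base of the match. They were cut where an annotated exon begins.
Tyr (chr7:87493513-87493712, minus strand, TCATGTG at position -22): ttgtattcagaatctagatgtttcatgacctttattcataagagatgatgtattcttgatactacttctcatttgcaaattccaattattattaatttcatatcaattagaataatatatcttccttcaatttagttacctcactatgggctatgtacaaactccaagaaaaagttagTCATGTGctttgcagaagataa
Dct (chr14:118052247-118052446, minus strand, TCATGTG at position -151): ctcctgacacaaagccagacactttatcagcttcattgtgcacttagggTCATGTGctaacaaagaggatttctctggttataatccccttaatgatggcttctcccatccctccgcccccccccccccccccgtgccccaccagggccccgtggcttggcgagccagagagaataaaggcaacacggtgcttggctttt
Slc24a5 (chr2:125067927-125068123, plus strand, TCATGTG on the opposite strand at position -13): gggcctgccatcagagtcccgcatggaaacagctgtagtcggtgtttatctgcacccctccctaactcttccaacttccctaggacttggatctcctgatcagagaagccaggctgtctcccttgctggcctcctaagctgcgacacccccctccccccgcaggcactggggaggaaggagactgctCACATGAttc
Slc7a11 (chr3:50443615-50443813, minus strand, TCATGTG at position -75): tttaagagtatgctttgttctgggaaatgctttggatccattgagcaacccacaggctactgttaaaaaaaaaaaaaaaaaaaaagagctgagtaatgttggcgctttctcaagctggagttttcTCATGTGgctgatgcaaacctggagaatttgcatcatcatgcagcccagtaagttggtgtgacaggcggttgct
Atp7a (chrX:106027024-106027223, plus strand, TCACGTG on both strands at positions -88 and -87): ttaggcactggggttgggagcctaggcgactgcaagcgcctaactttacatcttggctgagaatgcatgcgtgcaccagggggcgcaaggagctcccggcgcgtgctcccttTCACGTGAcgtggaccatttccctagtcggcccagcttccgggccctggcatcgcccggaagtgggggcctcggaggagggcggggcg
The other members with TCATGTG were Mc1r, Tyrp1, Trpm1 and Hps1, and the other members with TCACGTG were Bloc1s1, Bloc1s3, Hps1, Hps3, Hps5, Mlph and Vps33a. Tfap2a, Rab32 and Myo5a had a window without any of these letters, and Sox10, Gpr143, Pmel, Mlana, Slc45a2, Bloc1s6, Ap3s1 and Rab38 had no window in the table. A match is a description of the letters and not evidence of binding.

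To ask how the pigment genes behaved after lamin A/C knockdown, all 40 members were read from the test over all genes. In shLmna 6 members were lower and 5 were higher. The lower genes were the transcription factors Tfap2a and Sox10, the copper pump Atp7a, the exchanger Slc24a5 and the small GTPases Rab32 and Rab38. Those that rose were the fibril protein Pmel, its partner Mlana, the receptor Gpr143 and the motor Myo5a, and the count of 5 includes the cystine transporter Slc7a11. As Slc7a11 reached the minimum count in shLmna alone, its rise is a description and not a test result. Neither Tyrp1 nor Dct passed the test, and Tyr itself was barely counted.

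Of the 40 members, 35 had enough counts to be tested and 11 of these passed (31.4%), against 15.2% of all tested genes. The share of all tested genes that passed was 9.74% for lower and 5.48% for higher levels in shLmna. Another 24 tested members did not pass, with log2 fold changes from -1.12 to 0.57. The median log2 fold change of the 35 members was -0.07, and that of all tested genes was -0.00107. Groups did not overlap in 22 of the 35 members (62.9%) and in 60.1% of all tested genes. An unadjusted p under 0.05 was found for 17 members, and for 30.1% of all tested genes. Slc7a11 reached the minimum count in shLmna alone, so that a difference was built into its being tested. Without it 10 of 34 members passed (29.4%), and 12.8% of the 8727 genes that reached the minimum in a library of each group did. The limits that the study applied also required a log2 fold change over 1 in size and a mean normalized count over 5, and Tfap2a and Atp7a passed them downward and Slc7a11, with the reservation above, upward, where 5.88% and 1.76% of all tested genes did so.

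**Figure D1:**
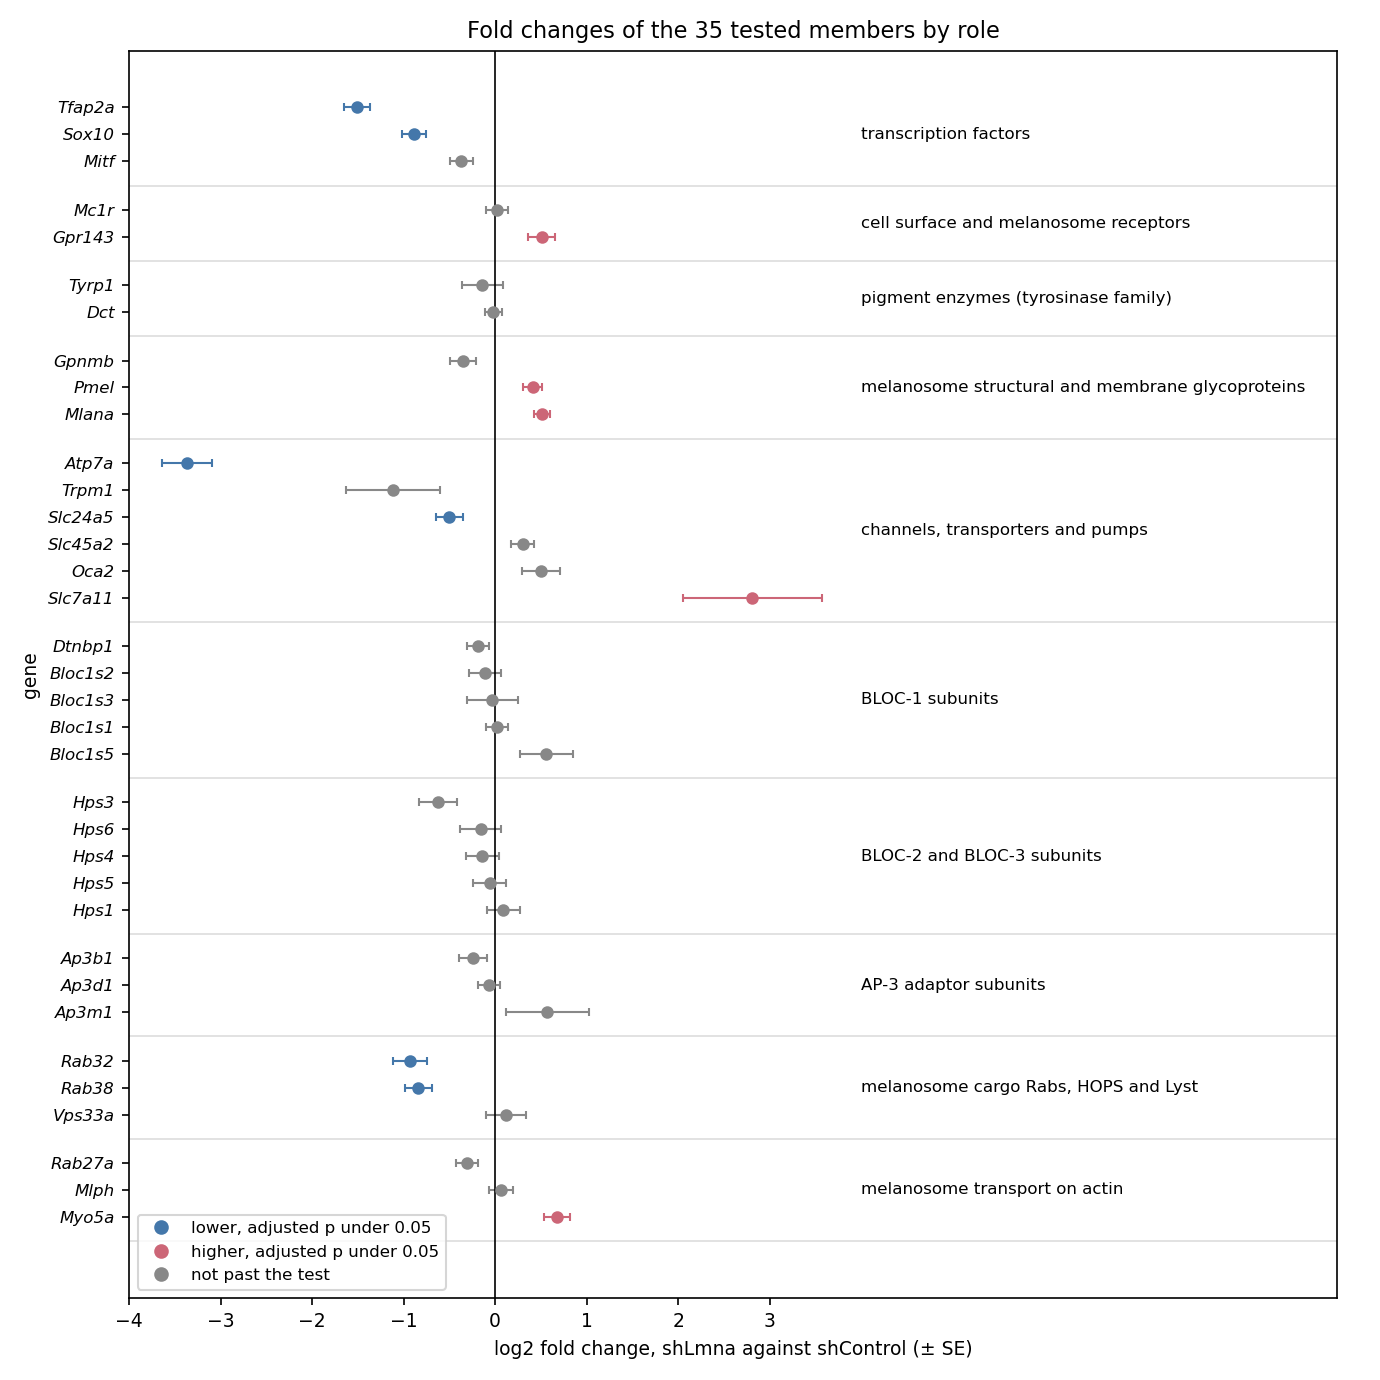
Log2 fold change of shLmna against shControl (horizontal axis) for the 35 tested members (vertical axis), ordered by role, with bars of ± 1 SE from the edgeR fit. The 3 transcription factors lie left of 0 between -1.51 and -0.37, the subunits of BLOC-1, BLOC-2, BLOC-3 and AP-3 lie between -0.62 and 0.57 without passing the test, and the channels, transporters and pumps spread from -3.37 for Atp7a to 2.81 for Slc7a11.

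The 3 lineage transcription factors were each lower in both shLmna libraries, and 2 of them passed the test. Of all tested genes, 60.1% had groups that did not overlap and 9.74% passed as lower. With 3 genes, these counts are a description. Tfap2a (chromosome 13, 40715302 to 40738376, GRCm38), which encodes the factor AP-2 alpha that acts beside Mitf at melanocyte genes, was at 103.5 and 96.7 CPM in shControl and at 33.6 and 36.5 CPM in shLmna. The control libraries were well above the knockdown libraries and each pair was tight. Its log2 fold change was -1.51 (SE 0.147, edgeR adjusted p 0.00014), a level 2.84-fold lower. Sox10 (chromosome 15, 79154908 to 79165240), the neural crest factor that activates Mitf, was at 1574 and 1851 CPM in shControl and at 843 and 1002 CPM in shLmna. Even the higher shLmna library lay far below the lower control. For Sox10 the log2 fold change was -0.89 (SE 0.13, edgeR adjusted p 0.00161), which is 1.86-fold lower. Both genes passed under all 13 alternatives that were run.

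Mitf (chromosome 6, 97807052 to 98021349), the central regulator of the melanocyte lineage, was at 137.2 and 133.1 CPM in shControl and at 99.7 and 109.3 CPM in shLmna. Its groups did not overlap, as in 60.1% of all tested genes. The log2 fold change of -0.37 (SE 0.125) had an edgeR adjusted p of 0.0804, so that Mitf missed the threshold. It passed under 4 of 13 alternatives, among them a correction for GC content (-0.44, edgeR adjusted p 0.0392) and the fit with replicate numbers as a block (edgeR adjusted p 0.0425). Under the rest it did not pass, DESeq2 among them (-0.365, DESeq2 adjusted p 0.316). The log2 fold change was -0.302 without shLmna 1 and -0.426 without shLmna 2.

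**Figure D2:**
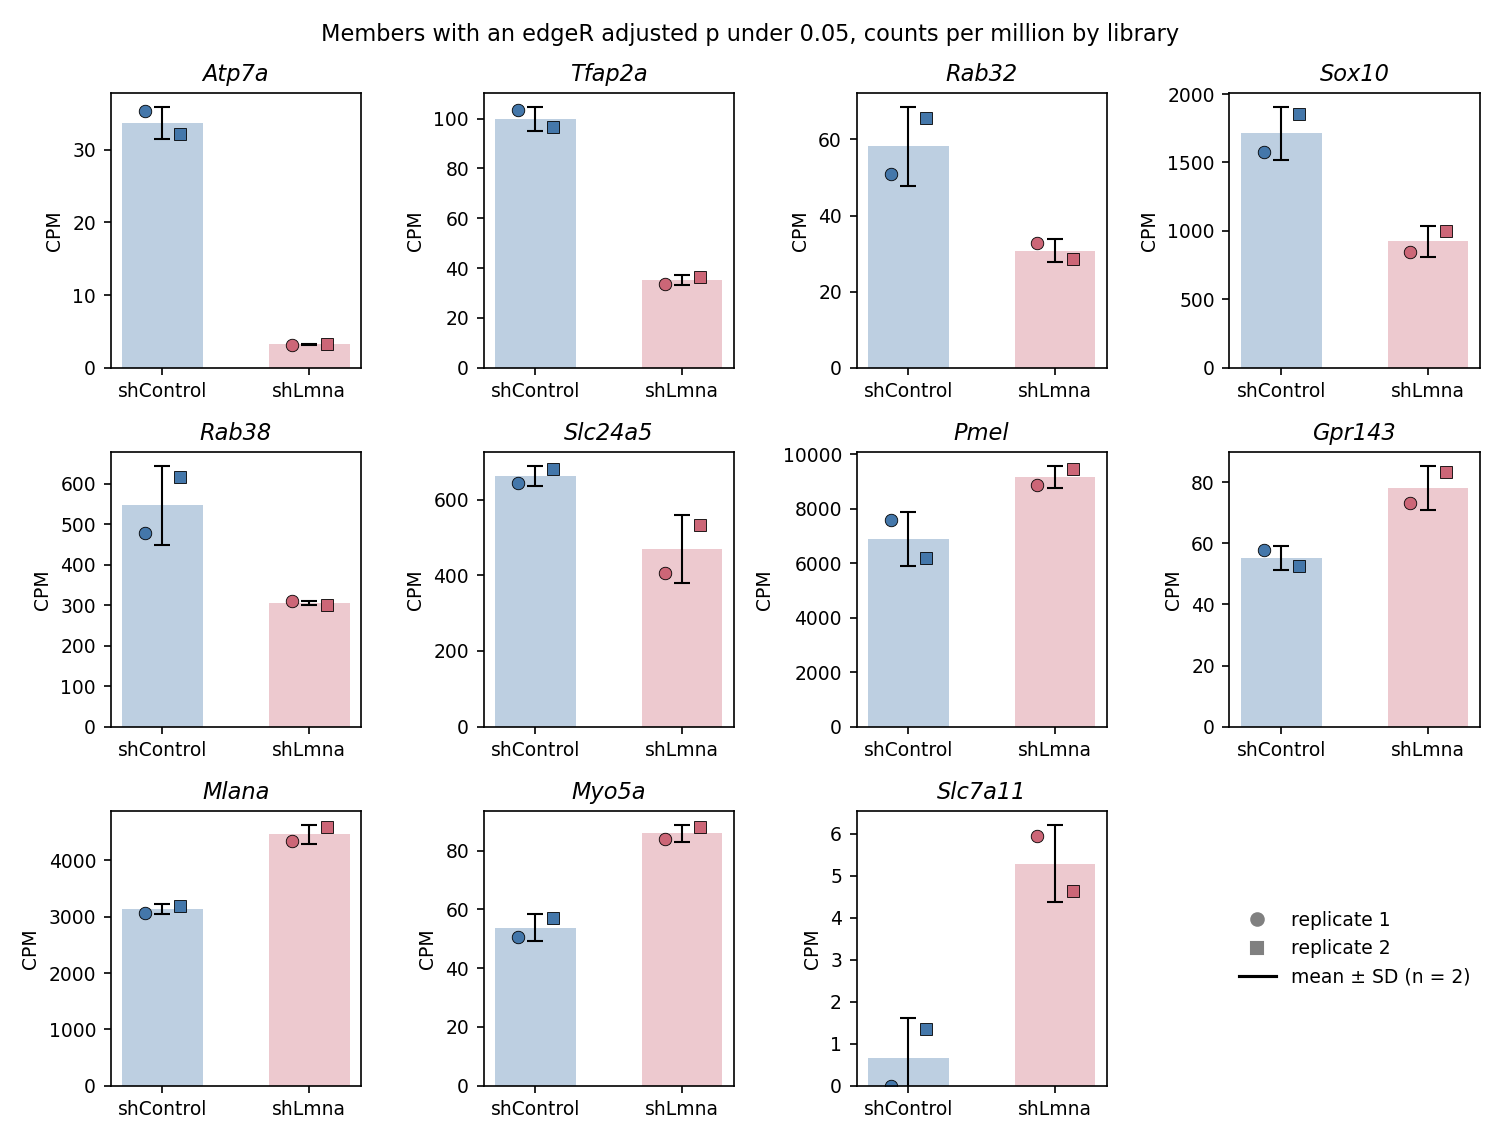
Level in CPM (vertical axis, starting at 0) of the 11 members that passed the test in each shControl and shLmna library, with points for libraries, bars for the group mean and whiskers for the SD (n = 2). The panels were chosen by the test between these groups, so their lying apart in every panel adds no further support. Groups were also apart in 60.1% of all tested genes. Slc7a11 was tested through its shLmna libraries alone and is shown as a description. The widest relative gap downward is in Atp7a, from 32.1 to 35.3 CPM in shControl to 3.16 to 3.27 CPM in shLmna.

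Among the receptors, Gpr143 rose and Mc1r was level. Gpr143 (chromosome X, 152781921 to 152808646), a G protein-coupled receptor of the melanosome membrane that is mutated in ocular albinism, was at 57.9 and 52.5 CPM in shControl and at 73.2 and 83.4 CPM in shLmna. Both knockdown libraries were higher than both controls. A log2 difference of 0.51 (SE 0.148, edgeR adjusted p 0.0448) was found, close to the threshold. It was 0.44 without shControl 2, 0.60 without shLmna 1 and 0.42 without shLmna 2, and Gpr143 did not pass in any of these fits. Mc1r, the melanocortin receptor that raises cyclic AMP in melanocytes, was at 304.2 and 287.8 CPM in shControl and at 295.4 and 303.5 CPM in shLmna, with overlapping groups and a log2 fold change of 0.02 (SE 0.119), though the gene overlaps the gene model Gm20388 on the same strand. Ednrb, the endothelin receptor of the lineage, had 0 counts in all 4 libraries, where a count of 0 allows up to 0.788 to 1.20 CPM by counting error alone.

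Of the pigment enzymes of the tyrosinase family 2 were tested, and 0 passed by edgeR or by DESeq2 or had an unadjusted p under 0.05. By edgeR 15.2% of all tested genes passed and 30.1% had an unadjusted p under 0.05. Dct (chromosome 14, 118012790 to 118052244), dopachrome tautomerase, was at 4689 and 5067 CPM in shControl and at 4608 and 4995 CPM in shLmna. These values interleave, and the log2 fold change was -0.02 (SE 0.0923, edgeR adjusted p 0.904). Tyrp1 (chromosome 4, 80834123 to 80851719), which acts in the later steps of eumelanin synthesis, was at 3843 and 3676 CPM in shControl and at 2384 and 4451 CPM in shLmna. Here the knockdown libraries lay on opposite sides of the controls, and the log2 fold change was -0.14 with an SE of 0.221 (edgeR adjusted p 0.724). It was -0.64 without shLmna 2, where Tyrp1 passed with an edgeR adjusted p of 0.0426, and 0.25 without shLmna 1.

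Tyr (chromosome 7, 87424771 to 87493512), tyrosinase, which catalyses the first and rate-limiting step of melanin synthesis, had 1 and 1 counts in the shControl libraries and 3 and 7 in shLmna. It was too low to be tested. The ratio of shLmna to shControl, with totals of 2 and 10 counts, was 5.75 (exact 95% interval of counting error 1.22 to 53.9), and the spread between libraries is not part of this interval. Of other markers of the melanocyte lineage, Pmel, Mlana, Dct, Tyrp1 and Sox10 were each counted at 843 CPM or more in every library. Mitf was lower, at 99.7 to 137.2 CPM. Other lineage genes were as scarce as Tyr, with 0 counts in every library for Ednrb and 1 to 8 for Kit. Tyr was far below the 6 markers named first in these counts of 3′ ends, which do not scale with gene length. GC made up 27.5% of the last 1000 transcript bases of Tyr, where the median of all tested genes was 46.8%. Whether GC content bears on its low count was not tested.

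The melanosomal glycoproteins Pmel and Mlana rose, by less than 1.5-fold. Pmel (chromosome 10, 128704195 to 128720238), the protein that forms the fibrils on which melanin is laid down, was at 7574 and 6196 CPM in shControl and at 8872 and 9457 CPM in shLmna. Both knockdown libraries were above both controls, and the controls differed from each other by about as much as the nearest pair between groups. Its log2 fold change was 0.41 (SE 0.104, edgeR adjusted p 0.0258). The value was 0.27 without shControl 2, 0.46 without shLmna 1 and 0.38 without shLmna 2, and Pmel did not pass in these fits. The gene overlaps Dgka on the other strand, whose own counts were 3 to 7 per library.

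Mlana (chromosome 19, 29697824 to 29708634), also called MART-1, a membrane protein needed for Pmel maturation, was at 3073 and 3194 CPM in shControl and at 4348 and 4586 CPM in shLmna. Replicates were close and the groups clearly apart. The log2 fold change was 0.51 (SE 0.0910, edgeR adjusted p 0.0051), or 1.43-fold higher, and the call was lost only without shLmna 2 (0.49, edgeR adjusted p 0.0783). Gpnmb, a glycoprotein related to Pmel, was at 83.3 and 76.0 CPM in shControl and at 58.1 and 66.5 CPM in shLmna, with a log2 fold change of -0.35 (SE 0.145) that did not pass the test (edgeR adjusted p 0.141).

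The steepest change among the 40 genes was in Atp7a (chromosome X, 106027276 to 106124926), the copper pump that loads tyrosinase with its metal. The shControl libraries held 114 and 120 counts and the shLmna libraries 8 and 12, which is 35.3 and 32.1 CPM against 3.16 and 3.27 CPM. The groups were far apart and the libraries of each group nearly equal. Its log2 fold change was -3.37 (SE 0.274, edgeR adjusted p 4.19e-05), a level 10.3-fold lower, and it passed under all 13 alternatives. It ranged from -3.44 to -3.30 when each library was left out in turn and was -0.64 in the deposited log2 values after batch correction.

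Slc24a5 (chromosome 2, 125068124 to 125088677), a potassium-dependent sodium and calcium exchanger of the melanosome pathway, also fell. It was at 642.7 and 681.6 CPM in shControl and at 405.0 and 532.7 CPM in shLmna. Both knockdown libraries were lower, and they differed from each other more than the controls did. On the log2 scale the change was -0.50 (SE 0.146, edgeR adjusted p 0.0468). It was -0.31 without shLmna 1 and -0.70 without shLmna 2, and the gene passed in neither fit. The 3′ end of Slc24a5 overlaps Myef2 on the opposite strand, counted 145 and 208 times in shControl and 41 and 92 times in shLmna, and since the strand setting of the counting is not stated, reads of the 2 genes cannot be told apart.

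Slc7a11 (chromosome 3, 49892526 to 50443614), the cystine and glutamate exchanger that supplies cysteine for pheomelanin, had 0 and 5 counts in the shControl libraries and 15 and 17 in shLmna. The gene passed the filter on low counts through its shLmna libraries alone, and a difference is therefore built into its being tested. Its counts are given as a description for this reason, and the fitted log2 fold change was 2.81 (SE 0.762). From the summed counts of 5 and 32, the ratio was 7.36 with an exact 95% interval of 2.85 to 24.2 for counting error alone. The fitted value ranged from 1.93 without shControl 1 to 7.04 without shControl 2, and was 2.66 without shLmna 1 and 3.02 without shLmna 2.

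The other channels and transporters did not pass the test. Slc45a2, a transporter that bears on melanosome pH, was at 741.5 and 648.4 CPM in shControl and at 802.9 and 910.6 CPM in shLmna (log2 fold change 0.30, SE 0.125). Oca2, the protein mutated in oculocutaneous albinism that controls melanosome ion balance, was at 23.5 and 20.1 CPM in shControl and at 28.9 and 32.4 CPM in shLmna (log2 fold change 0.50, SE 0.210). Both were higher in each knockdown library. Trpm1, a cation channel of melanocytes, had 26 and 26 counts in the shControl libraries and 3 and 19 in shLmna, so that 1 knockdown library was far lower than the other and the log2 fold change of -1.12 (SE 0.516) moved from -2.61 without shLmna 2 to -0.53 without shLmna 1.

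Melanosome biogenesis was described by its complexes. Of the 13 tested subunits of BLOC-1, BLOC-2, BLOC-3 and AP-3, 0 passed the test by edgeR or by DESeq2, and only Hps3 had an unadjusted p under 0.05. By edgeR 15.2% of all tested genes passed and 30.1% had an unadjusted p under 0.05. With 13 genes, these counts are a description. For BLOC-1, which sorts cargo from endosomes toward melanosomes, the log2 fold changes were 0.02 for Bloc1s1, -0.11 for Bloc1s2, -0.03 for Bloc1s3, 0.56 for Bloc1s5 and -0.19 for Dtnbp1 (dysbindin). Dtnbp1, at 287.1 and 268.3 CPM in shControl and 242.5 and 243.3 CPM in shLmna, was the one tested BLOC-1 subunit whose groups did not overlap. The same held for 60.1% of all tested genes. Of the 31-base stretches in the counted ends of Bloc1s1 and Bloc1s2, 61.1% and 46.8% also occur in other genes, and Bloc1s1 overlaps Rdh5 on the same strand, which makes these counts uncertain.

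BLOC-2, made of Hps3, Hps5 and Hps6, directs the carriers to melanosomes. Hps3 was at 29.1 and 29.5 CPM in shControl and at 18.2 and 19.9 CPM in shLmna. Replicates were tight and the groups apart, and the log2 fold change was -0.62 (SE 0.208) with an edgeR adjusted p of 0.0784. Hps3 overlaps Cp on the other strand, counted 8 to 13 times per library. The values were -0.06 for Hps5 and -0.16 for Hps6. BLOC-3, the activator of Rab32 and Rab38 formed by Hps1 and Hps4, gave log2 fold changes of 0.09 for Hps1 and -0.14 for Hps4, with overlapping groups in each.

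AP-3, an adaptor that sorts tyrosinase to melanosomes, gave log2 fold changes of -0.24 for Ap3b1, -0.07 for Ap3d1 and 0.57 for Ap3m1. Ap3m1 was low, at 2.41 to 4.75 CPM over all libraries, and it overlaps Vcl on the other strand. Vcl had 25 and 60 counts in the shControl libraries and 2 and 2 in shLmna, and whether counting used strand is not stated, so reads of the pair cannot be told apart. Ap3s1 had 10 and 11 counts in the shControl libraries and 4 and 3 in shLmna and was not tested, with a ratio of shLmna to shControl of 0.383 (exact 95% interval of counting error 0.138 to 0.936). In Ap3s1, 17.1% of the 31-base stretches occur elsewhere. Bloc1s6, the BLOC-1 subunit pallidin, had 1 to 6 counts per library and was not tested either.

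The small GTPases that act with these complexes were the members of the biogenesis class that fell. Rab38 (chromosome 7, 88430273 to 88491572), which guides tyrosinase and Tyrp1 into melanosomes, was at 477.9 and 616.3 CPM in shControl and at 309.3 and 301.6 CPM in shLmna. Its close relative Rab32 (chromosome 10, 10545002 to 10558265) was at 50.8 and 65.6 CPM in shControl and at 32.8 and 28.6 CPM in shLmna. In both genes the knockdown libraries were close together and lay under the lower control. The log2 fold change was -0.84 for Rab38 (SE 0.144, edgeR adjusted p 0.00413) and -0.93 for Rab32 (SE 0.189, edgeR adjusted p 0.00976), which is 1.79-fold and 1.91-fold lower. Without shLmna 2 the values were -0.81 for each, and neither passed (edgeR adjusted p 0.0788 for Rab38 and 0.124 for Rab32).

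Vps33a, a subunit of the HOPS tether that joins endosomes and lysosomes, was at 28.5 and 23.0 CPM in shControl and at 24.9 and 30.5 CPM in shLmna, with a log2 fold change of 0.12 (SE 0.220). Lyst, the regulator of lysosome size mutated in beige mice, had 1 and 0 counts in the shControl libraries and 0 and 1 in shLmna, at the floor of detection in both groups. In the biogenesis class as a whole 2 of 16 tested members were lower and 0 were higher by edgeR. An unadjusted p under 0.05 was found for 3 of the 16, and for 30.1% of all tested genes. The 12.5% that passed was under the 15.2% of all tested genes in either direction and near the 9.74% in the lower direction. DESeq2 gave no higher member in it either. The median log2 fold change of the class was -0.09.

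In the transport complex, the motor rose while its links did not pass the test. Myo5a (chromosome 9, 75071015 to 75223688), the myosin that moves melanosomes on actin, was at 50.5 and 57.0 CPM in shControl and at 83.8 and 88.0 CPM in shLmna. The knockdown libraries were both well above the controls. Its log2 fold change was 0.68 (SE 0.143, edgeR adjusted p 0.0117), or 1.60-fold higher. It was 0.71 without shLmna 1 and 0.65 without shLmna 2, and the call was lost in each fit. Rab27a, which marks the mature melanosome, was at 172.8 and 179.6 CPM in shControl and at 141.2 and 142.2 CPM in shLmna. Its groups were apart, as in 60.1% of all tested genes, with a change of -0.31 on the log2 scale (SE 0.117, edgeR adjusted p 0.104). Mlph, the linker between Rab27a and Myo5a, was at 425.0 and 481.6 CPM in shControl and at 434.3 and 510.6 CPM in shLmna, a log2 fold change of 0.06 (SE 0.133).

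Further genes of the pathway were read from a list of 84, of which 82 had a row in the matrix and 67 were tested. In shLmna 6 were lower and 2 higher, together 11.9% of those tested against 15.2% of all tested genes, and the median log2 fold change was 0.05. Atp6ap2, Snap23 and Sox9 reached the minimum count in 1 group alone, and without them 6 of 64 passed (9.38%). Among regulators, Ctnnb1, the gene of beta-catenin, which cooperates with Lef1 at the Mitf promoter, fell by 0.66 on the log2 scale (SE 0.111, edgeR adjusted p 0.00369), and it overlaps Ulk4 on the other strand. Among genes of melanosome acidity, Atp6ap2, an accessory subunit of the vacuolar proton pump, was counted 122 and 226 times in shControl and 2 and 4 times in shLmna. Since it was tested through its shControl libraries alone, these counts are given as a description, with no test. Ostm1, the partner of the chloride transporter Clcn7, rose by 0.76 (SE 0.183, edgeR adjusted p 0.0207), and without shLmna 2 it did not pass (0.57).

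In the sorting machinery, the syntaxin Stx7 fell by 1.25 on the log2 scale (SE 0.146, edgeR adjusted p 0.000446), and Tsg101 of the ESCRT pathway, which shares 13.5% of its 31-base stretches with other genes, fell by 0.50 (SE 0.119, edgeR adjusted p 0.0207). Snap23, a SNARE of membrane fusion, had 20 and 85 counts in the shControl libraries and 1 and 3 in shLmna, where both knockdown libraries were at the floor of 3 counts, and it too was tested through shControl alone. Of the genes that move melanosomes, the formin Fmn1 had 28 and 39 counts in the shControl libraries and 3 and 11 in shLmna (log2 fold change -2.09, SE 0.448, edgeR adjusted p 0.0125), while the dynactin subunit Dctn1 had 27 and 30 counts in the shControl libraries and 40 and 72 in shLmna (1.12, SE 0.264, edgeR adjusted p 0.0194). The calls of Ctnnb1, Tsg101 and Dctn1 were lost without shLmna 1 and without shLmna 2, and that of Fmn1 without shLmna 1. With each library left out in turn, the log2 fold change ran from -0.71 to -0.60 for Ctnnb1 and -0.55 to -0.43 for Tsg101. It ran from 0.96 to 1.26 for Dctn1 and from -2.96 to -1.66 for Fmn1. With DESeq2, Ostm1, Dctn1 and Fmn1 did not pass.

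Across all genes, those that passed the test in either direction had a lower median GC content of the counted end than the rest. The median GC content of the last 1000 transcript bases was 39.8% in genes that were lower in shLmna, 42.8% in those that were higher and 47.4% in the rest. In the 6 lower members it was 36.5% for Slc24a5, 37.1% for Tfap2a, 39.8% for Rab32, 42.0% for Rab38, 45.2% for Atp7a and 57.2% for Sox10. In the 5 higher members it ran from 35.0% for Myo5a to 52.7% for Pmel. With a correction for GC content, the log2 fold change was -0.80 for Sox10, -1.47 for Tfap2a, -3.44 for Atp7a, -0.99 for Rab32 and -0.92 for Rab38, and each of them passed. Slc24a5 (-0.42, edgeR adjusted p 0.0657) and Gpr143 (0.45, edgeR adjusted p 0.0664) did not pass after this correction, whereas Rab27a (-0.39, edgeR adjusted p 0.0478) and Mitf (-0.44, edgeR adjusted p 0.0392) did.

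**Figure D3:**
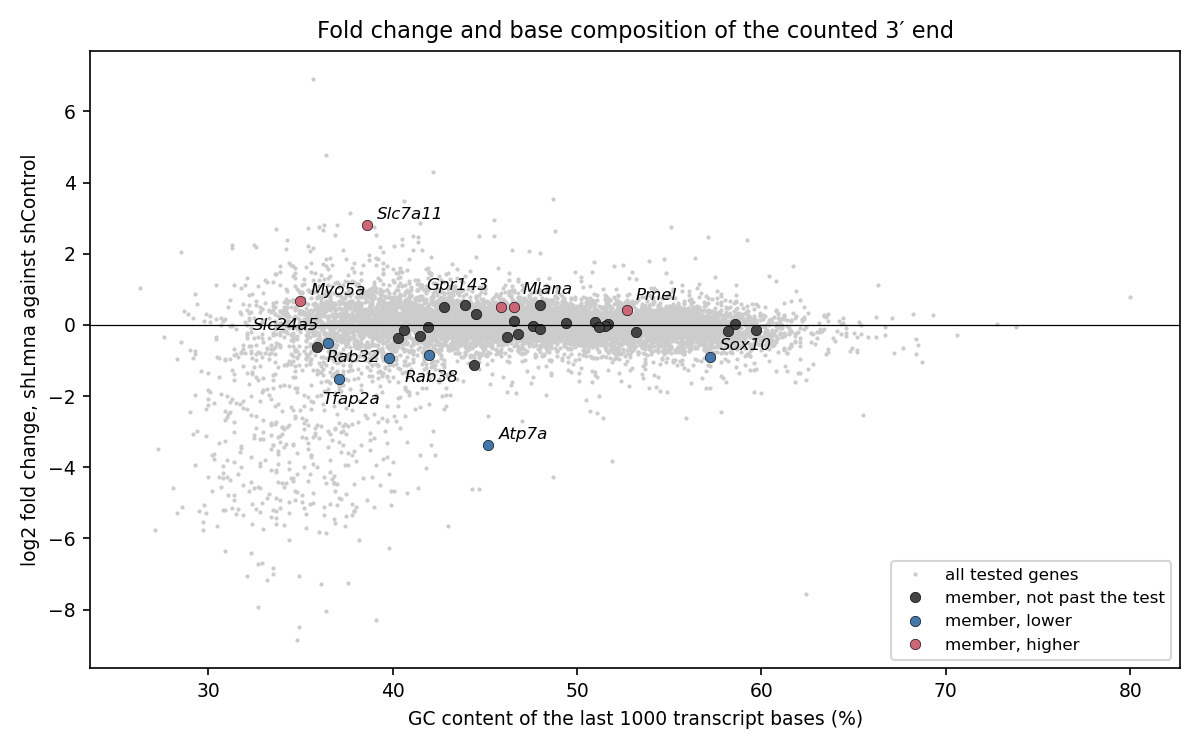
Log2 fold change of shLmna against shControl (vertical axis) against the GC content in percent of the last 1000 transcript bases (horizontal axis) for all tested genes (grey) and the tested members (dark, blue or red for not passed, lower and higher). Of the lower members, Sox10 at 57.2%, Atp7a at 45.2% and Rab38 at 42% GC lie to the right of the 39.8% median of all lower genes. Rab32 lies at this median, and Tfap2a at 37.1% and Slc24a5 at 36.5% lie to the left of it.

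The 11 calls, among which that of Slc7a11 is a description only, did not depend equally on each library. Sox10, Tfap2a and Atp7a passed whichever library was left out. The other calls were lost without shLmna 2, and some of them without shLmna 1 as well. Each of these 2 fits has a single knockdown library left, so a lost call need not mean a changed value. The log2 fold change of Mlana was 0.554 without shLmna 1 and 0.486 without shLmna 2. That of Slc24a5 moved more, to -0.309 and -0.696. Fold changes of all 11 were nearer to 0 in the batch-corrected log2 values than in the counts. For example, that of Tfap2a was -0.59 there and that of Slc7a11 was 0.27. The batches behind this correction are not named, and neither their part nor that of the log2 scale in the difference was tested. With DESeq2, Gpr143 (DESeq2 adjusted p 0.238) and Myo5a (DESeq2 adjusted p 0.0511) did not pass, and neither did Slc7a11, whose rise is a description. Pmel missed the threshold in counts recovered from the deposited normalized values (0.32, edgeR adjusted p 0.059), and Slc24a5 with upper quartile scaling (-0.47, edgeR adjusted p 0.056). No member that passed changed direction under any of the 13 alternatives.

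**Figure D4:**
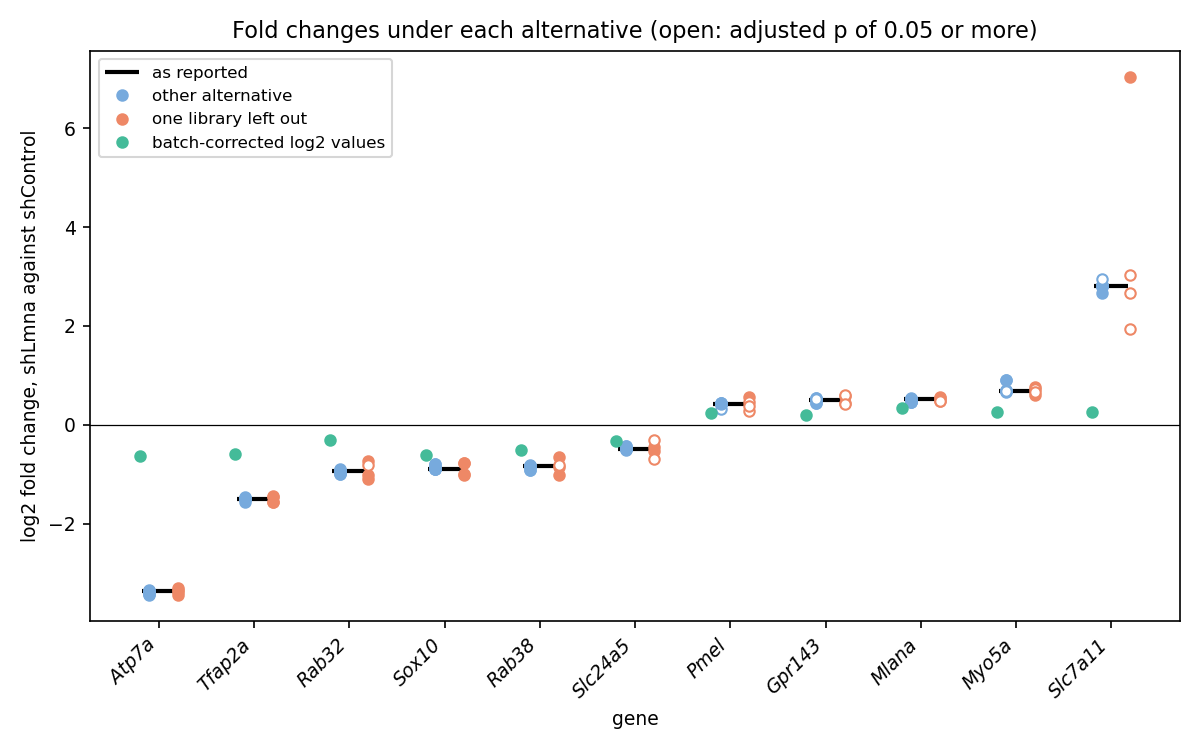
Log2 fold change (vertical axis) of the 11 members that passed (horizontal axis), as reported (black line), with 1 library left out (orange), in batch-corrected log2 values (green) and under the other alternatives (blue), where open symbols have an adjusted p of 0.05 or more. All symbols of a gene lie on the same side of 0. Slc7a11, shown as a description only, has the widest range, from 0.27 to 7.04.

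Markers of other cell types were near the limit of detection, and the one of them with enough counts to be tested, Col1a2, did not pass. Summed levels were 7.12 to 7.50 CPM in shControl and 2.37 to 4.90 CPM in shLmna for 7 fibroblast markers, with Dcn, Lum and Thy1 at 0, and 2.95 to 5.89 against 0.396 to 1.63 CPM for 6 epithelial markers, with Epcam, Krt5 and Krt14 at 0. Endothelial markers summed to 0.619 to 1.34 CPM in shControl and to between 0 and 0.272 CPM in shLmna, with Cdh5, Kdr and Emcn at 0. Those of leukocytes summed to 0.268 to 1.86 CPM and 1.19 to 1.63 CPM, with Ptprc, Cd3e and Tyrobp at 0. Fibroblast, epithelial and endothelial sums were thus lower in both shLmna libraries, and their part in the members' values was not tested.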

How the data were processed

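The authors sequenced 4 bulk MARS-seq libraries and processed them in the UTAP pipeline, with Cutadapt for trimming, STAR 2.4.2a for alignment to mm10 and HTSeq for counting over the last 1000 bases of RefSeq genes and 100 bases downstream. Per the study's methods, molecules were counted once duplicates of their identifiers had been marked. Which deposited table this describes is not stated. Counts in the matrix summed to 1.08 to 1.09 times those recovered from the normalized table, and 0 genes had fewer. The authors deposited raw counts per gene symbol, used for every main test. Another deposited table holds a signal per library, the gene count divided by a DESeq2 size factor, and the authors' own fold changes and p-values, which were not used. In each library 100% of its values were multiples of 1 step (tolerance 0.1), and the counts so recovered served as an alternative. The remaining table holds log2 values that the authors corrected for batch with ComBat, without naming the batches.

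Counts were tested here with edgeR 4.0.16 (R 4.3.3) by its quasi-likelihood F test (TMM scaling, default filterByExpr, group as the one term, two-sided), adjusted by the Benjamini-Hochberg method over 9150 genes. SEs were derived from the F statistic, and the biological coefficient of variation was 0.126. Replicates differed by more than sampling noise (chi-square per degree of freedom 6.96 in shControl and 3.91 in shLmna) and were counted separately. Groups were taken from sample titles. Totals of 2494880 to 3808843 counts make 3 counts, the floor of detection, worth 0.788 to 1.20 CPM, and floors and intervals cover counting error only. The correlation of deviations between same-numbered libraries was 0.0129, which showed no pairing by replicate number, though 2 libraries per group cannot exclude one. Coordinates and GC content are from GENCODE M21 (GRCm38) and promoters from RefSeq. Alternatives were RLE and upper quartile scaling, no filter, each library left out, a replicate block, recovered counts, a GC correction with and without the block, DESeq2 1.42.0, limma 3.58.1 on the batch-corrected values, and a 1.5-fold limit. Scripts were tested on simulated data. The members, the gene lists and the rule for naming genes (every member accounted for, each library's value for those that passed, the 3 enzymes and the 3 transcription factors, and other pathway genes where they passed) were chosen with earlier results of these data known.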

Additional observations from a re-analysis of the deposited data

How the results depend on the processing

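Across the 35 tested members and 13 alternatives, 396 of 455 values kept their direction and their side of the threshold, 23 lost a call, 17 gained one and 19 changed sign, and no member that passed changed sign. With DESeq2, 2 members were higher, with 0 past the limits of the study, 1 other pathway gene was higher, and 592 genes were lower and 218 higher in all, 66 of the latter past the limits. With limma on batch-corrected values, 13 members were lower and 8 higher, 0 in each direction past the limits, 11 and 19 other pathway genes were lower and higher, and 1988 and 1793 genes in all, with 27 and 2 past the limits. Fold changes were smaller in these values, with Lmna at -1.54 against -2.61 in the counts, so the same log2 limit is stricter there. A 1.5-fold limit put 5 members lower and 2 higher past it, and 386 genes higher in all. The replicate block gave 852 higher genes in all (869 with the GC correction) and 5 higher other pathway genes, where the GC correction alone gave 5 and both together 8. With the block 8 members were lower and 5 higher, and it changed no member's call other than adding Mitf and Hps3. The causes were not tested.

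Without 1 library at a time, lower members numbered 4 to 6 and higher members 0 to 5, with 2 to 5 and 0 to 1 past the limits. Other pathway genes numbered 3 to 10 lower and 0 to 4 higher, and all genes 414 to 1329 lower and 89 to 775 higher, with 387 to 744 and 60 to 232 past the limits. The log2 fold changes that changed sign then ranged from -0.025 to 0.060 in Mc1r, -0.644 to 0.248 in Tyrp1, -0.075 to 0.039 in Dct, -0.056 to 0.108 in Bloc1s1, -0.326 to 0.367 in Bloc1s3, -0.094 to 0.316 in Hps1, -0.376 to 0.052 in Hps4, -0.185 to 0.071 in Hps5, -0.033 to 0.282 in Vps33a and -0.048 to 0.176 in Mlph. Dct was also above 0 with upper quartile scaling (0.007), Hps4 with the GC correction (0.008) and Hps5 with limma (0.001). Where a group is left with 1 library, that library is assumed to vary like the other group. Tyr, Bloc1s6 and Lyst, with 7 or fewer counts in each library, could not be tested at this depth.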
